A study of Mus musculus with 8 samples.

Results

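The receptors for neurotransmitters were examined in RNA-seq libraries of fully grown mouse oocytes at the germinal vesicle (GV) stage, in CNOT7&8 KO oocytes against Zp3-Cre control oocytes. The members were chosen by name, as every gene whose symbol begins like that of an ionotropic glutamate receptor (Gria, Grid, Grik, Grin), a metabotropic glutamate receptor (Grm), a GABA receptor (Gabr, Gabbr), a glycine receptor (Glr), a nicotinic or muscarinic acetylcholine receptor (Chrn, Chrm), a serotonin receptor (Htr), a dopamine receptor (Drd) or an opioid receptor (Oprd, Oprk, Oprl, Oprm). This name pattern took 99 of the 46078 genes of the table. Of these, 96 are receptor subunits, 60 of ion channels and 36 of G protein-coupled receptors, and the other 3 are not receptors but a protein that binds a receptor and the antisense RNAs Chrna1os and Grin1os. Each group had 4 libraries, each made from 100 oocytes. The females had a C57BL/6J background, were 4 weeks old and received 5 IU of the gonadotropin PMSG 48 h before GV oocytes were collected, and cumulus cells were removed with hyaluronidase. After collection, GV oocytes were cultured with dibutyryl-cAMP, an analog of cyclic AMP, until use. The paper names Illumina's TruSeq Stranded mRNA LT kit and describes the mRNA as purified by depletion of ribosomal RNA. Whether poly(A) tail length affected the counts was not tested. The KO carries floxed Cnot7 and Cnot8 alleles, which encode the deadenylase subunits of the CCR4–NOT complex, deleted by Cre driven from the Zp3 promoter. That promoter acts in growing oocytes, so that other ovarian cells keep both genes, and the control is the Zp3-Cre line. The labels do not say whether the 4 libraries of a group came from separate animals, and the p-values below then measure the spread between libraries, which may be technical.

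Ionotropic receptors are ion channels assembled from several subunits, which open when the transmitter binds, and most of them need a particular mix of subunits to work. Metabotropic receptors are single proteins or pairs that signal through G proteins, and those coupled to Gs raise cyclic AMP, whereas those coupled to Gi lower it. These receptors are known from synapses. In the fully grown oocyte, cyclic AMP is what holds meiosis at the GV stage, and most of the RNA is a store of maternal transcripts whose poly(A) tails are shortened or extended, with the CCR4–NOT complex as the main enzyme of shortening.

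Counts summed to between 8639444 and 44092144 per library, with KO replicate 1 the shallowest and control replicate 1 the deepest, and 3 counts made between 0.0802 and 0.326 CPM. CPM is the usual depth-normalised read count, with library sizes scaled by TMM, a method that takes most genes as unchanged. Pairs of libraries were compared by chi-square per degree of freedom of their counts. Pairs with control replicate 1 gave 140 to 210, and the other control pairs 7.85 to 17.7. Pairs with KO replicate 4 gave 40.4 to 91.2, and the other KO pairs 20.2 to 32.2. This measure grows with depth, and these 2 libraries were the deepest of their groups. Cnot8 had 154 to 197 CPM in control and 33.1 to 36.1 CPM in KO libraries, and Cnot7 had 886 to 1048 and 622 to 788 CPM. All 12 oocyte markers were found in every library, at a summed 18932 to 22004 CPM in control and 15493 to 17941 CPM in KO libraries. Of 17 granulosa and cumulus markers tested, 7 (41.2%) were upregulated and 0 downregulated by the rule given below, against 23.8% and 6.56% of all genes tested. At the adjusted p alone, 1 was lower. The list summed to 149 to 197 CPM in control and 276 to 375 CPM in KO libraries. The part of these markers in the results below was not tested. The 10 theca and stromal markers summed to 2.58 to 5.53 CPM in control and 2.77 to 4.28 CPM in KO, the 13 endothelial, immune and blood markers to 123 to 156 and 95.8 to 108 CPM with all 4 hemoglobin genes at 0. Of the 16 neuron markers 7 were too low to be tested, among them Stmn2, Nefl, Nefm and Gap43. Of the 9 tested, 2 (22.2%) were upregulated and 0 downregulated, against the same 23.8% and 6.56% of all genes. At the adjusted p alone, 3 were higher and 2 lower. The sum of 970 to 1986 CPM in control and 733 to 1370 CPM in KO lay mostly in Uchl1 and Tubb3. In whole oocytes, fewer cells with a transcript and less transcript per cell cannot be told apart.

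Of the 99 genes, 92 had at least 1 count and 69 passed the filter of 0.2 CPM in 2 or more libraries and were tested. Of these 69, 68 are receptor subunits and 1 is the protein that binds a receptor. That protein was not called and is counted among the receptor genes below, except in counts by family. A gene was called upregulated or downregulated at an adjusted p of at most 0.05 and at least a 2-fold change, from the quasi-likelihood test of edgeR, adjusted by Benjamini and Hochberg's method over all 19241 genes tested. By this rule 33 receptor genes (47.8% of those tested) were upregulated in CNOT7&8 KO oocytes and 8 (11.6%) downregulated, against 23.8% and 6.56% of all genes tested. At the adjusted p alone, 38 were higher and 12 lower, or 55.1% and 17.4%, against 31.2% and 24.1% of all genes. In 34 of the 69, each KO library lay above each control library, and in 12 each lay below, or 49.3% and 17.4% against 27% and 21.4% of all genes tested. The median log2 fold change was 1.06 over the 69 genes and 0.12 over all genes tested.

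These shares went with level, since genes of low level were more often upregulated throughout the transcriptome. Among genes with a mean under 1 CPM, 35.5% were upregulated and 3.26% downregulated, and of the 30 receptor genes there 18 rose and 1 fell. From 1 to under 10 CPM the background was 35.7% and 8.23%, and 13 of 23 receptor genes rose and 3 fell. At 10 CPM or more it was 9.65% and 7.68%, and of 16 receptor genes 2 rose and 4 fell. For 24 of the 69 genes fewer than 2 control libraries were over the filter, so that these genes could be tested through their KO values alone. Of the 44 genes over the filter in 2 or more libraries of each group, 15 rose, 8 fell and 21 were not called, where the background was 17.6% up and 7.51% down. The strict filter of 1 CPM in 4 libraries left 41 receptor genes, with 18 upregulated and 7 downregulated, against 20.8% and 6.22% of all genes under that filter. Without control replicate 1 and KO replicate 4, 32 rose and 7 fell.

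**Figure D1:**
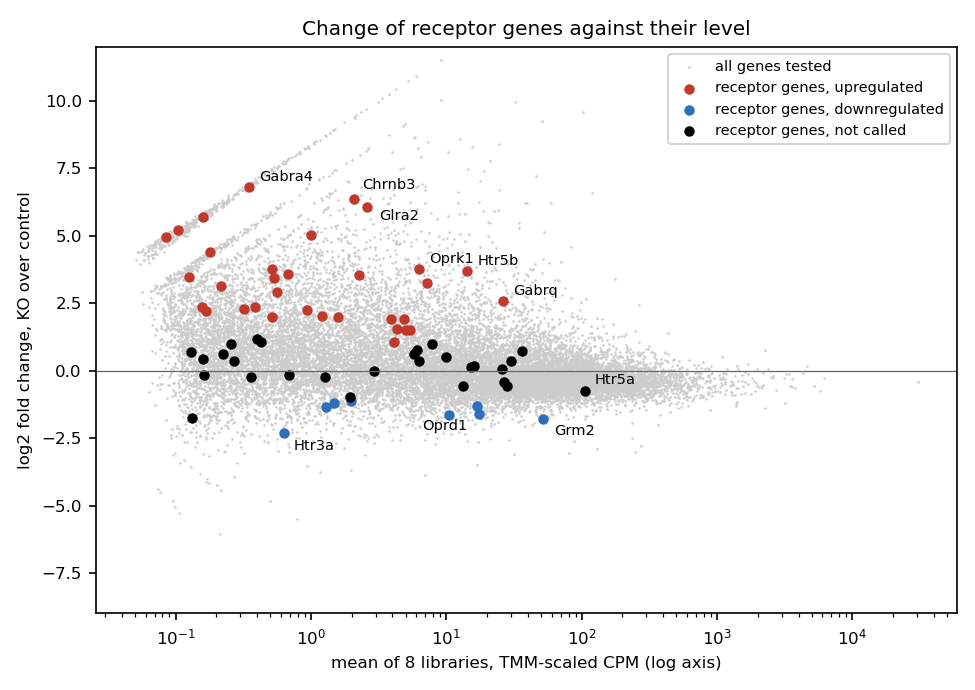
The x axis is the mean of 8 libraries in TMM-scaled CPM on a log axis and the y axis is the log2 fold change of KO over control. Grey points are all 19241 genes tested, and larger points the 69 members tested, 68 of them receptor subunits (red upregulated, blue downregulated, black not called). The 33 upregulated genes spread from under 1 CPM up to Gabrq and Htr5b, while the 8 downregulated genes hold 4 of the 16 genes at 10 CPM or more.

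By family, 9 of 13 tested GABA-A subunits, 3 of 4 glycine receptor subunits and 4 of 6 serotonin G protein-coupled receptors were upregulated and none downregulated. The background for all counts by family is 23.8% up and 6.56% down. Of these upregulated genes, Gabra4, Gabrb1, Gabre, Gabrg1, Gabrr1, Glra2, Htr1b and Htr4 had fewer than 2 control libraries over the filter. Such genes could be tested through their KO values alone and could hardly be called downregulated. In other families this held for the upregulated Gria2, Gria3, Gabbr1, Grin2c, Grik1, Grm5, Chrm2, Chrna4, Chrna9 and Chrnb3. The nicotinic subunits (4 up and 2 down of 11 tested) and the metabotropic glutamate receptors (2 up and 2 down of 7) went both ways. Over all ion channel subunits 23 rose and 4 fell of 45 tested, and over all G protein-coupled receptors 10 rose and 4 fell of 23. The 30 genes that were not tested had between 0 and 9 counts in all 8 libraries together. Genes under the naming limits given in the methods are named in what follows to complete their families, after their values were seen, and the control libraries together were the deeper group where counts are compared. No count at all was found for Gabra6, Grm6, Htr1a, Htr1f, Htr2c, Htr6 and the antisense RNA Grin1os.

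**Figure D2:**
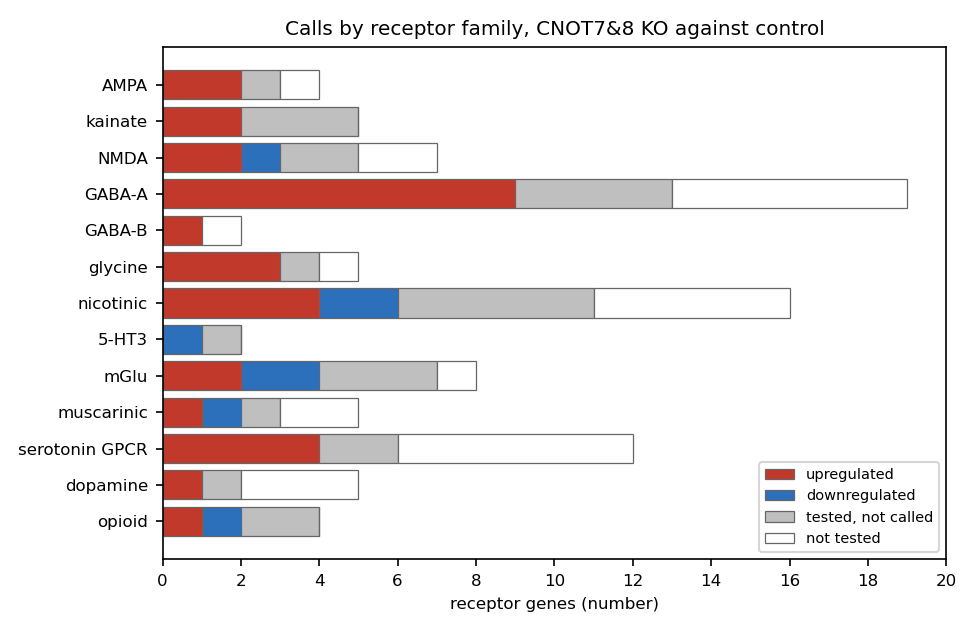
Horizontal bars give on the x axis the number of receptor genes in each of 13 families on the y axis, 94 in all, split into upregulated, downregulated, tested but not called, and not tested. GABA-A receptors hold the most upregulated genes, 9 of 19, and only NMDA, nicotinic, 5-HT3, metabotropic glutamate, muscarinic and opioid receptors hold downregulated genes.

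Maternal transcripts carry elements in the 3′UTR that recruit the machinery of poly(A) tail control. The cytoplasmic polyadenylation element (CPE, UUUUAU) was searched as TTTTAT on the strand of the transcript, in the longest annotated 3′UTR of each gene (GENCODE vM21, GRCm38). Of 67 tested receptor genes with a 3′UTR, 49 (73.1%) held at least 1 CPE, against 56.2% of all tested coding genes, but receptor 3′UTRs were also longer, with a median of 1950 against 1119 bases, and the number of CPEs per 1000 bases was 0.95 against 1.003. Within 3′UTRs of 1000 to under 2000 bases, 13 of 17 receptor genes (76.5%) and 66.5% of all genes held a CPE, and from 2000 to under 4000 bases 17 of 19 (89.5%) and 84.9%. Among upregulated receptor genes 22 of 32 (68.8%) held a CPE, among downregulated genes 6 of 7 (85.7%) and among those not called 21 of 28 (75%). Over all tested coding genes, 59.3% of those upregulated and 40.1% of those downregulated held a CPE. Their median 3′UTRs were 1267 and 664 bases, against 2353.5 and 1308 bases in upregulated and downregulated receptor genes. The following stretches show the CPE in capitals, with 12 bases on each side, for genes with large changes in either direction that hold a single CPE, and the last CPE of Grm8, which lies 47 bases before the annotated end. A match describes the sequence and is not evidence of binding.
Glra2, upregulated, chrX:165129507-165129536, minus strand: aacaaatgctcaTTTTATtttagatcaagt
Oprk1, upregulated, chr1:5605896-5605925, plus strand: ctattgtgcaaaTTTTATttttcaagaaat
Oprd1, downregulated, chr4:132111813-132111842, minus strand: gggaagaagggcTTTTATagcagtgatgtc
Grm2, downregulated, chr9:106644639-106644668, minus strand: gcctttttaattTTTTATaagttactctgg
Grm8, higher by less than 2-fold, chr6:27275154-27275183, minus strand: gacgcatgcaatTTTTATacaaataattta
The longest 3′UTRs of Htr5b, Gabrr1, Chrna7 and Htr1d, all upregulated, and of Chrnd, which was downregulated, held no TTTTAT. Both directions of change thus held members with the element and members without it.

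GABA-A receptors are chloride channels usually built from alpha, beta and a further subunit. Of the beta subunits, which most assemblies need, Gabrb2 had 0.454, 0.247, 0.476 and 0.146 CPM in control replicates 1 to 4 and 5.32, 4.23, 2.59 and 4.53 CPM in KO replicates 1 to 4. The groups lay far apart, and the log2 fold change was 3.56 ± 0.36 (error here and below is the standard error, n = 4 per group, adjusted p = 8.68e-06). Gabrb1, with 9 control and 36 KO counts in all, was 4.72-fold higher (95% interval 2.23 to 11.1, counting error only).

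The most abundant of the upregulated members was Gabrq, the theta subunit, at chromosome X of GRCm38 from 72825178 to 72842602 on the plus strand (ENSMUSG00000031344). It had 10.7, 6.32, 5.99 and 6.77 CPM in control and 44.9, 41.7, 41.3 and 50.5 CPM in KO libraries. Control replicate 1 was above the other controls but well below every KO library, and the log2 fold change was 2.57 ± 0.19 (adjusted p = 8.98e-07). Gabrq lies in a cluster with the genes of the epsilon subunit Gabre and of the alpha subunit Gabra3. Gabre rose too, from at most 0.136 CPM in control to 0.740 to 2.04 CPM in KO libraries, with 9 control and 102 KO counts and a ratio of 13.4 (6.77 to 30.1). Gabra3 did not pass the test, with 11.2 to 20.4 CPM in control and 13.4 to 22.3 CPM in KO (log2 fold change 0.16, adjusted p = 0.542).

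The alpha subunits, which carry the benzodiazepine site together with gamma, overlapped between the groups in their sum. Gabra3 and Gabra5 supplied nearly all of their summed 17.3 to 26.0 CPM in control and 21.3 to 33.3 CPM in KO. Gabra5 was higher by less than 2-fold, 3.06 to 6.12 against 6.47 to 10.05 CPM (log2 fold change 0.76 ± 0.25, adjusted p = 0.0216), and lost this significance without control replicate 2 (adjusted p = 0.0658), control replicate 3 (0.0621) or KO replicate 4 (0.0584). Gabra4, often part of receptors outside synapses, had no count in any control library and 51 counts in KO libraries, at 0.308 to 0.868 CPM, which is at least 20.1-fold higher when the control group is set to 3 counts. Gabra2 and Gabra6 were not tested, with at most 3 counts each in all.

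Of the gamma subunits, Gabrg3 rose from 0.884 to 2.16 CPM in control to 4.56 to 7.59 CPM in KO (log2 fold change 1.91 ± 0.29, adjusted p = 1.47e-04). Gabrg1 was upregulated from 10 to 41 counts, with groups that overlapped. The rho subunits form receptors of their own, known from the retina. Gabrr1 had 5 counts, all of them in control replicate 1, against 153 counts and 1.52 to 2.55 CPM in KO libraries (ratio 36.1, 15.1 to 113). Gabrr3, 1 of the abundant receptors of control oocytes, was lower by less than 2-fold, 26.7 to 33.3 CPM in control and 19.8 to 25.1 CPM in KO (log2 fold change -0.41 ± 0.14, adjusted p = 0.0224). This significance was lost without control replicate 4, KO replicate 3 or KO replicate 4 (adjusted p = 0.0674, 0.0652 and 0.0590). It was also lost with library size alone (log2 fold change -0.13, adjusted p = 0.421), upper quartile factors (adjusted p = 0.0738) or TMM on genes of at least 10 CPM (0.325). The pi subunit Gabrp, known from epithelia, was at 6.66 to 10.5 against 10.4 to 13.9 CPM (log2 fold change 0.50, adjusted p = 0.0396, with overlapping groups), which leaving out control replicate 2, 3 or 4 or KO replicate 4 took past 0.05, with adjusted p from 0.0551 to 0.115. Gabrd and Gabrr2 were not tested.

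**Figure D3:**
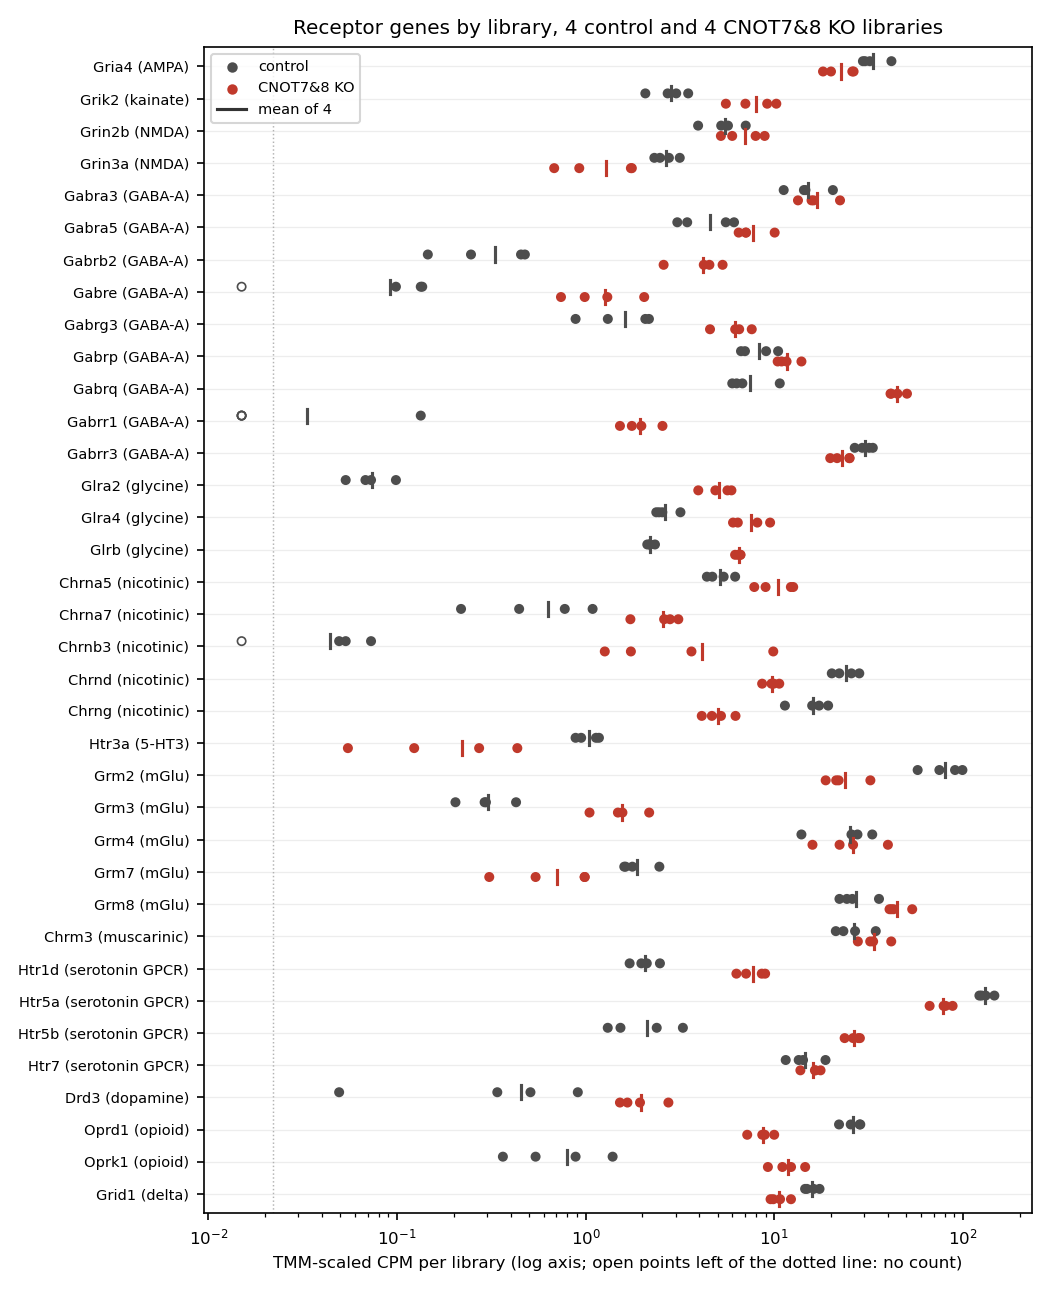
Points are TMM-scaled CPM of single libraries on a log x axis for 36 receptor genes on the y axis, grouped by family, in control (grey) and CNOT7&8 KO (red), with short bars for the mean of 4 libraries and open points at the left for libraries without a count. The 4 libraries of each group cluster tightly for Glrb, while Chrnb3 spreads from 1.26 to 9.88 CPM within the KO group.

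GABA-B receptors are obligate pairs in which Gabbr1 binds GABA and Gabbr2 couples to the G protein. Gabbr1 was upregulated, from 0.0535 to 0.148 CPM in control to 0.678 to 1.52 CPM in KO libraries (7 against 67 counts, ratio 11.3, 5.19 to 29.2). Its partner Gabbr2 had 4 control and 2 KO counts and was not tested.

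Glycine receptors, the other inhibitory chloride channels, consist of alpha subunits and the beta subunit Glrb, which ties them to the scaffold gephyrin. Glra2, the alpha subunit typical of the embryonic nervous system, had the lowest p of all receptor genes. It had 0.0535, 0.0987, 0.0680 and 0.0728 CPM in control and 5.65, 3.95, 4.87 and 5.93 CPM in KO libraries. That is 6 counts in 4 control libraries against 377 in 4 KO libraries, a ratio of 74.1 (33.7 to 203) and a log2 fold change of 6.06 ± 0.34 (adjusted p = 1.21e-07). Glra2 lies on chromosome X from 165129017 to 165327393, minus strand (ENSMUSG00000018589).
Glrb had 2.19, 2.12, 2.18 and 2.33 CPM in control and 6.62, 6.42, 6.60 and 6.20 CPM in KO. The spread within each group was small beside the difference, with a log2 fold change of 1.55 ± 0.18 (adjusted p = 2.03e-05). Glra4 rose by a similar factor, from 2.37 to 3.18 CPM to 6.04 to 9.50 CPM (log2 fold change 1.51 ± 0.21). Glra3 was not called (0.404 and 0.321 CPM on average, adjusted p = 0.715), and Glra1, the adult spinal subunit, had 1 count.

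The AMPA receptors carry fast excitation at synapses. Gria4 made up nearly all of their level and was lower in KO by less than 2-fold, 29.5 to 41.8 CPM in control against 18.1 to 26.3 CPM in KO (log2 fold change -0.56 ± 0.17, adjusted p = 0.0128). This significance was lost with library size alone (log2 fold change -0.27, adjusted p = 0.152) and with TMM on genes of at least 10 CPM (-0.305, adjusted p = 0.0948). Gria2, the subunit that makes the channel impermeable to calcium, was upregulated from 1 to 31 counts (ratio 36.6, 6.09 to 1490), and Gria3 from 0 to 17 counts, at least 6.68-fold, with no count in KO replicate 1.

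Among kainate receptors, Grik2, which can form channels alone, rose from 2.07 to 3.50 CPM to 5.54 to 10.2 CPM (log2 fold change 1.52 ± 0.24, adjusted p = 2.22e-04), and Grik1 from 4 to 18 counts. Grik4 and Grik5, which work only together with Grik1 to Grik3, did not pass the test, and Grik5 had 1.20 to 3.26 CPM in control and 0.579 to 1.85 CPM in KO. The delta receptors bind cerebellins at synapses, and Grid1 was lower by less than 2-fold, 14.6 to 17.4 against 9.55 to 12.3 CPM (log2 fold change -0.57 ± 0.15, adjusted p = 0.00606). This significance was lost with library size alone (-0.28, adjusted p = 0.118) and with TMM on genes of at least 10 CPM (-0.32, adjusted p = 0.0751).

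NMDA receptors need the subunit Grin1, which binds glycine, and this gene had 4 control and 2 KO counts in all. The other subunits were found without it. Grin2a was upregulated (18 against 62 counts), and so was Grin2c (3 against 21 counts, ratio 8.26, 2.47 to 43.2). Grin2b had 3.95 to 7.06 CPM in control and 5.21 to 8.89 CPM in KO, with an adjusted p of 0.201, and passed the test with library size alone (log2 fold change 0.65, adjusted p = 0.0256) and with TMM on genes of at least 10 CPM (0.62, adjusted p = 0.0282). Grin3a, a subunit that lowers calcium entry, was downregulated from 2.31 to 3.15 CPM to 0.681 to 1.76 CPM (log2 fold change -1.13 ± 0.32, adjusted p = 0.0108). It was less than 2-fold lower without KO replicate 3 (log2 fold change -0.99) or KO replicate 4 (-0.86), and without both control replicate 1 and KO replicate 4 it did not pass the test (-0.79, adjusted p = 0.0518). With library size alone (-0.84) or TMM on genes of at least 10 CPM (-0.87), Grin3a was also less than 2-fold lower.

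Among the metabotropic glutamate receptors, Grm2, a Gi-coupled receptor of group II, was downregulated. It had 57.5, 99.4, 90.8 and 75.0 CPM in control and 21.9, 18.7, 32.3 and 21.3 CPM in KO libraries, 29.2% of the control mean. Control replicate 1 was the lowest control and still above every KO library, and the log2 fold change was -1.78 ± 0.20 (adjusted p = 2.04e-05). Grm2 lies on chromosome 9 from 106643095 to 106656082, minus strand (ENSMUSG00000023192), and shares 470 exon bases with an antisense gene, Gm28111. The strand setting of the counting is not given in the sources used here, so reads of the pair cannot be told apart. Its group II partner Grm3 was upregulated from a far lower level, 0.204 to 0.428 CPM to 1.05 to 2.17 CPM (log2 fold change 2.25 ± 0.37, adjusted p = 3.23e-04).

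In group III, also coupled to Gi, Grm8 was higher by less than 2-fold, with 35.9, 22.2, 25.9 and 24.2 CPM in control and 40.8, 41.8, 42.9 and 53.8 CPM in KO (log2 fold change 0.73 ± 0.17, adjusted p = 0.00284). Grm7 was downregulated, 1.60 to 2.46 against 0.308 to 0.988 CPM (log2 fold change -1.35 ± 0.37, adjusted p = 0.00795). Grm4 overlapped between the groups, 13.9 to 33.1 against 15.9 to 40.0 CPM, with an adjusted p of 0.876. The Gq-coupled group I receptor Grm5 was upregulated from 6 to 73 counts (ratio 14.4, 6.29 to 40.4).

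Nicotinic receptors divided by type. The 5 genes of the muscle type summed to 39.1 to 50.4 CPM in control and 17.4 to 19.0 CPM in KO libraries, while the 11 genes of the neuronal type summed to 5.53 to 7.43 and 14.7 to 24.2 CPM. Chrnd and Chrng, the delta and gamma subunits of the fetal muscle receptor, are neighbors on chromosome 1, from 87190607 to 87200070 and from 87204657 to 87212694, both on the plus strand. Chrnd had 25.6, 28.2, 22.1 and 20.2 CPM in control and 9.66, 8.62, 9.93 and 10.6 CPM in KO (log2 fold change -1.31 ± 0.15, adjusted p = 2.44e-05). Chrng had 11.4, 19.3, 17.3 and 15.9 CPM in control and 4.13, 5.22, 6.23 and 4.67 CPM in KO (log2 fold change -1.65 ± 0.20, adjusted p = 3.43e-05). In both genes every KO library lay below every control library. The beta subunit Chrnb1 had 2.92 CPM on average in each group (adjusted p = 0.926), the adult subunit Chrne was not called, and Chrna1, the subunit that binds acetylcholine in every muscle receptor, had 0 control and 3 KO counts.

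All 4 upregulated nicotinic genes were of the neuronal type. Of these, Chrnb3, Chrna4 and Chrna9 had fewer than 2 control libraries over the filter, so they could hardly be called downregulated. Chrnb3, an accessory subunit, had 4 counts in control libraries and 1.74, 1.26, 3.64 and 9.88 CPM in KO replicates 1 to 4, or 388 counts, a ratio of 114 (44.3 to 422). KO replicate 4 held the highest value, and without it the log2 fold change was 5.44 in place of 6.35. Chrna7, which forms receptors alone, rose from 0.218 to 1.09 CPM to 1.73 to 3.10 CPM (log2 fold change 1.99 ± 0.39, adjusted p = 0.00108). Chrna9, known from hair cells, rose from 11 to 80 counts and Chrna4 from 1 to 13 counts (ratio 15.3, 2.30 to 652). The accessory subunit Chrna5 was higher in every KO library, 4.39 to 6.20 against 7.83 to 12.6 CPM (adjusted p = 0.00141). Its log2 fold change of 0.997 was just short of 2-fold and passed it in several alternatives, for example at 1.10 without control replicate 1. Chrna3, Chrna6, Chrnb2 and Chrnb4, main partners in neuronal receptors, had at most 24 counts each in all. The first pair was not tested and the other was not called.

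The muscarinic receptors were represented mainly by the Gq-coupled Chrm3, at 21.2 to 34.5 CPM in control and 27.7 to 41.7 CPM in KO (log2 fold change 0.35, adjusted p = 0.108). It passed an adjusted p of 0.05 with upper quartile factors (adjusted p = 0.0391), TMM on genes of at least 10 CPM (0.00562) or library size alone (log2 fold change 0.64, adjusted p = 0.00660), but not with RLE factors (0.0814). It also passed without control replicate 1 (0.51, adjusted p = 0.0140) or KO replicate 2 (0.47, adjusted p = 0.0366). Of the Gi-coupled receptors, Chrm4, named here after its values were seen, was downregulated (1.58 to 3.11 against 0.604 to 1.30 CPM, adjusted p = 0.0115), and Chrm2 was upregulated from 0 to 15 counts, at least 5.90-fold, with no count in KO replicate 1.

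Among serotonin receptors, close relatives moved in opposite directions. Htr5a and Htr5b are both receptors of type 5, and Htr5a is coupled to Gi. Htr5a had the highest level of all receptor genes, with 147, 122, 132 and 126 CPM in control and 80.9, 88.1, 66.6 and 79.0 CPM in KO, 59.8% of the control mean (log2 fold change -0.74 ± 0.12, adjusted p = 2.07e-04). Htr5b had 1.31, 1.53, 2.38 and 3.28 CPM in control and 26.2, 27.9, 28.4 and 23.6 CPM in KO, a 12.5-fold higher mean (log2 fold change 3.70 ± 0.26, adjusted p = 5.4e-07). In neither gene did the groups overlap. Htr5a lies on chromosome 5 from 27842149 to 27855088, plus strand (ENSMUSG00000039106), and Htr5b on chromosome 1 from 121509842 to 121528465, minus strand (ENSMUSG00000050534). Htr1d, also coupled to Gi, rose from 1.71 to 2.48 CPM to 6.30 to 8.94 CPM (log2 fold change 1.92 ± 0.21, adjusted p = 1.28e-05), and Htr1b from 5 to 21 counts. Of the Gs-coupled receptors, Htr7 had 11.5 to 18.7 against 13.7 to 17.6 CPM (adjusted p = 0.490) and passed the test with library size alone (log2 fold change 0.44, adjusted p = 0.0291) and with TMM on genes of at least 10 CPM (0.41, adjusted p = 0.0345). Htr4, coupled to Gs too, was upregulated from 0 to 23 counts, at least 9.04-fold. The type 2 receptors, coupled to Gq, had at most 5 counts each. Among the 5-HT3 channels, Htr3a, the subunit every such channel needs, was downregulated from 0.884 to 1.18 CPM to 0.0549 to 0.434 CPM (log2 fold change -2.31 ± 0.49, adjusted p = 0.00176), whereas its partner Htr3b did not pass the test (adjusted p = 0.0743).

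Of the dopamine receptors only the D2-like, Gi-coupled Drd3 was called. It had 0.909, 0.0493, 0.340 and 0.510 CPM in control and 1.52, 2.75, 1.66 and 1.94 CPM in KO (log2 fold change 2.02 ± 0.52, adjusted p = 0.00547), and 2.81 without control replicate 1, the highest control. Drd5 did not pass the test, and Drd1, Drd2 and Drd4 had at most 9 counts each.

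Among the opioid receptors, all coupled to Gi, the delta receptor was downregulated and the kappa receptor upregulated. Oprd1, the delta receptor, had 25.4, 28.6, 22.0 and 28.3 CPM in control and 9.99, 8.90, 8.63 and 7.19 CPM in KO, 33.3% of the control mean (log2 fold change -1.60 ± 0.16, adjusted p = 6.19e-06). Oprk1, the kappa receptor, had 1.39, 0.543, 0.884 and 0.364 CPM in control and 12.3, 11.0, 9.25 and 14.6 CPM in KO, a 14.8-fold higher mean (log2 fold change 3.78 ± 0.33, adjusted p = 2.51e-06). Per 1000 bases of the longest transcript, the means of Oprd1 and Oprk1 were 6.49 and 0.1701 CPM in control and 2.16 and 2.52 CPM in KO. Their order in KO depended on the length used, since with the union of exons the KO means were 2.16 and 1.29 CPM. Oprd1 lies on chromosome 4 from 132110726 to 132144486, minus strand, and Oprk1 on chromosome 1 from 5588466 to 5606131, plus strand. The mu receptor Oprm1 and the nociceptin receptor Oprl1 stayed under 1 CPM and did not pass the test.

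In the exact permutation test, any gene whose groups do not overlap has a two-sided p of 0.0286, the smallest that 4 against 4 libraries can give. For such genes this p adds nothing to the lack of overlap, and it is not adjusted for the number of genes. Of all genes tested, 27% had every KO library above every control library and 21.4% every one below.

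Although more receptor genes rose than fell, the summed level of all 99 genes was 517 to 566 CPM in control and 523 to 586 CPM in KO libraries. These sums rest on the TMM factors, which were 0.849 to 0.943 in control and 1.07 to 1.14 in KO libraries. With library size alone, each KO sum is higher and each control sum lower. Counts over total counts then put every KO library above every control library. Per 1000 bases of transcript, the sum was 119 to 130 in control and 130.4 to 144 in KO, with every KO library above every control library. Of the 13 receptor genes with a control mean of at least 10 CPM, 8 were lower at the adjusted p alone, Grm8 was higher and 4 did not pass the test. Over all genes tested 24.1% were lower and 31.2% higher, and the share at this control level was not counted. All genes with a mean of 10 CPM or more had a median log2 fold change of -0.255. Of the 8, Gria4, Gabrr3 and Grid1 lost significance with library size alone. Htr5a alone made up 24.4% of the summed level in control and 14.5% in KO, and the 5 highest genes of each group 56.1% and 42.0%. The number of receptor genes with at least 1 count was 62 to 72 in control and 67 to 83 in KO libraries, and the deepest library was a control. The GABA-A sum was 60.8 to 83.8 CPM in control and 118 to 153 CPM in KO, the glycine receptor sum 5.03 to 5.61 and 17.9 to 21.9 CPM, and the kainate sum 6.09 to 7.86 and 9.88 to 12.1 CPM. The nicotinic sum was 45.3 to 55.9 and 33.7 to 42.0 CPM and the opioid sum 23.8 to 29.6 and 18.7 to 23.2 CPM. The groups did not overlap in these 5 sums, whereas the NMDA, muscarinic, serotonin G protein-coupled and metabotropic glutamate sums overlapped. Per 1000 bases of transcript the same sums overlapped or did not, except for the serotonin G protein-coupled receptors, whose sum was then higher in every KO library, 34.8 to 38.5 against 28.5 to 34.5 in control. By counts over total counts, the opioid sum of KO replicate 4 (681 of 26784110) lay above that of control replicate 3 (350 of 15588247). The nicotinic sum then overlapped too, with KO replicate 4 (1232 of 26784110) above control replicate 4 (622 of 14943671).

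**Figure D4:**
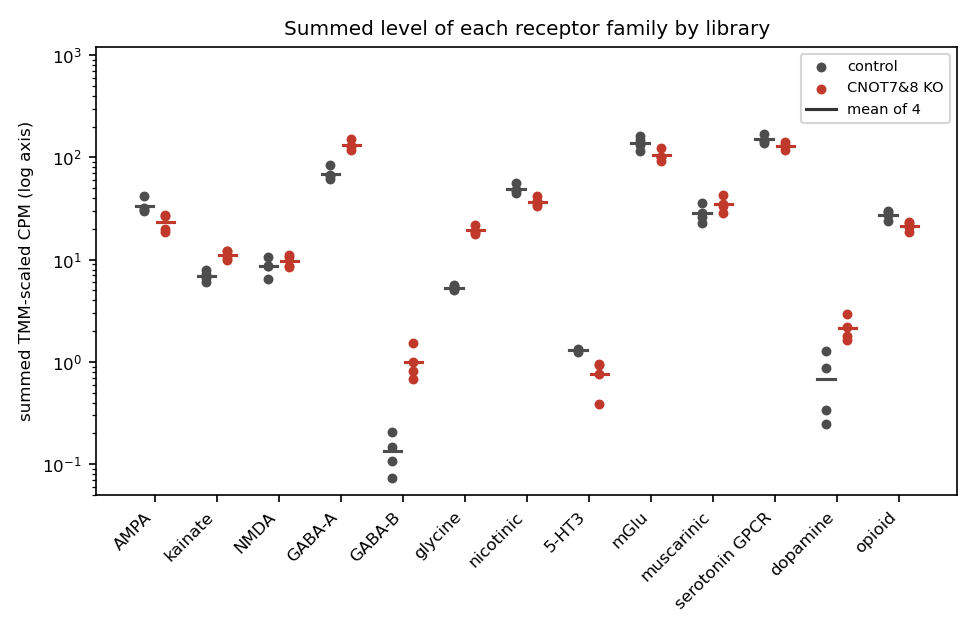
The y axis, a log axis, is the summed TMM-scaled CPM of all genes of each of 13 receptor families in each library, in control (grey) and KO (red), with short bars for the mean of 4 libraries. GABA-A, GABA-B, glycine, kainate and dopamine receptors lie higher in every KO library, and AMPA, nicotinic, 5-HT3 and opioid receptors lie lower.

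Levels of different genes were compared per length, as CPM per 1000 bases of the longest transcript. In control oocytes the order was Htr5a (24.5 ± 2.02, SD, n = 4), Grm2 (17.1 ± 3.91), Chrnd (8.15 ± 1.22), Gabrr3 (7.08 ± 0.68), Oprd1 (6.49 ± 0.76), Gria4 (6.14 ± 1.04) and Chrm3 (6.10 ± 1.35). From Chrnd on, neighbors in this order differed by less than the larger of their SDs. In KO oocytes Htr5a (14.6 ± 1.66) and Htr5b (13.7 ± 1.12) came first and differed by less than the SD of either, followed by Grm8 (9.34 ± 1.26), Gabrq (9.02 ± 0.86) and Chrm3 (7.79 ± 1.34). Htr5b moved from rank 21 to rank 2 and Gabrq from 17 to 4, while Grm2 moved from 2 to 9, Chrnd from 3 to 15, Oprd1 from 5 to 20 and Chrng from 8 to 23. With the union of all exons as length, the first 6 genes of control oocytes had the same ranks, while Chrm3, Chrng and Grm8 came to ranks 8, 11 and 12, and Grm8 fell to rank 8 in KO.

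**Figure D5:**
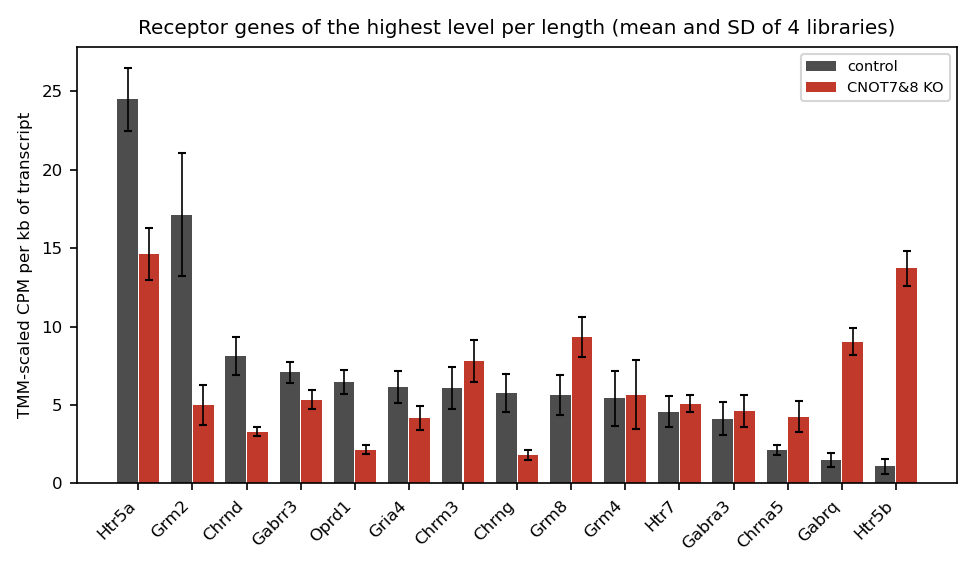
Bars are the mean TMM-scaled CPM per 1000 bases of the longest transcript, with the SD of 4 libraries, for the 15 genes that rank among the 12 highest in control (grey) or KO (red). Htr5a is highest in both groups, and the bars of Gabrq and Htr5b at the right are the ones that rise from under 2 in control to 9.02 and 13.7 in KO.

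Genes that act with these receptors were counted from 3 lists. Of 39 tested postsynaptic and auxiliary proteins, 10 (25.6%) were upregulated and 1 (2.56%) downregulated, with a median log2 fold change of 0.39. Ric3, a chaperone that nicotinic and 5-HT3 receptors need for assembly, had 12.8 to 20.2 CPM in control and 102 to 175 CPM in KO (log2 fold change 3.08 ± 0.20, adjusted p = 2.73e-07). Kctd8, an auxiliary subunit of GABA-B receptors, rose from 0.136 to 0.291 CPM to 3.04 to 5.99 CPM (log2 fold change 4.13 ± 0.36), and its relative Kctd12b from 0.146 to 0.395 CPM to 4.67 to 6.64 CPM (log2 fold change 4.15 ± 0.31).

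Of 35 tested genes of transmitter synthesis, transport and breakdown, 13 (37.1%) were upregulated and 4 (11.4%) downregulated. Glul, the glutamine synthetase, rose from 12.6 to 17.2 CPM to 63.8 to 81.4 CPM (log2 fold change 2.27 ± 0.15, adjusted p = 2.87e-07), and Slc1a1, a glutamate transporter, from 7.35 to 13.8 CPM to 52.3 to 71.2 CPM (log2 fold change 2.47 ± 0.21). Slc6a4, the serotonin transporter, was downregulated from 29.9 to 32.7 CPM to 10.2 to 12.4 CPM (log2 fold change -1.45 ± 0.13, adjusted p = 3.38e-06).

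Of 37 tested other receptors and channels of neurons, 12 (32.4%) were upregulated and 1 (2.70%) downregulated. Scn9a, a voltage-gated sodium channel, had 1 count in control libraries and 407 in KO libraries, at 3.57 to 7.19 CPM (ratio 480, 85.7 to 19008). Adrb3, a Gs-coupled adrenergic receptor, rose from 0.612 to 1.75 CPM to 7.25 to 12.3 CPM (log2 fold change 3.25 ± 0.33), and Adora2b, a Gs-coupled adenosine receptor, from 5.24 to 8.23 CPM to 14.2 to 15.3 CPM (log2 fold change 1.16 ± 0.17). The background shares of 23.8% and 6.56% hold for these lists too.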

How the data were processed

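RNA-seq was measured in 8 libraries of GV oocytes, 4 per group, grouped by the deposited labels. Per the labels, the authors aligned reads with STAR 2.6.1d, and edgeR 3.11 is named in their processing notes. The table was deposited as raw read counts per gene. The counting tool, its strand setting and its annotation are not given in the sources used here, so genes with overlapping exons remain uncertain. The receptors and gene lists were chosen with earlier results of these data known.

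From the counts, edgeR 4.0.16 in R 4.3.3 was used to filter genes (at least 0.2 CPM in 2 libraries), scale by TMM and run the quasi-likelihood test with Benjamini-Hochberg adjustment over all genes tested. Single genes were also compared by an exact permutation test over 70 assignments. Ratios of low counts carry an exact 95% interval for counting error, and a group without counts was set to 3 counts over its 4 libraries. Totals ran from 8639444 to 44092144 counts, so genes of low level are less precise in KO replicate 1. Named receptor genes were the called ones with a mean of at least 1 CPM in either group, at most 25 by p, and all with at least 5 CPM in either group, plus up to 3 called genes per pathway list. List genes matched the table in 99.6%. Gene positions and 3′UTRs came from GENCODE vM21 (GRCm38), which held 98% of the gene IDs. Alternatives were edgeR's exact test, DESeq2 1.42.0, other scalings, filters and thresholds, a replicate block and each library left out. The scripts were tested on simulated data. Single-gene results of some receptors are not reported here. Replicate numbers did not pair the libraries, with correlations of deviations from -0.12 to 0.11.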

Additional observations from a re-analysis of the deposited data

Results flagged for a closer look

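In 90 groups of 4 libraries examined for a library far from the other 3, 5 stood apart, against 4.5 given by chance at 1 in 20. Gabrq had 10.7 CPM in control replicate 1 and 5.99 to 6.77 CPM in the other controls. Gabrr1 had 0.134 CPM in control replicate 1 and no count in the others. Gabra5 had 10.05 CPM in KO replicate 4, against 6.47 to 7.08 CPM in the other KO libraries, and Grm8 had 53.8 CPM there, against 40.8 to 42.9 CPM. Scn9a had 0.0728 CPM, or 1 count, in control replicate 4 and none in the other controls.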

How the results depend on the processing

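Receptor genes upregulated numbered 18 with the filter of 1 CPM in 4 libraries, which left 41 of them, and those downregulated 1 with a 4-fold threshold. Postsynaptic genes upregulated were 16 with library size only or with TMM on genes of at least 10 CPM and 17 with the adjusted p only. Those downregulated were 0 with DESeq2, library size only, no filter, the filter of 1 CPM, the replicate block, or both control replicate 1 and KO replicate 4 left out, and 6 with the adjusted p only. Transmitter genes upregulated were 7, and other receptors and channels upregulated 5, with the filter of 1 CPM. Other receptors and channels downregulated were 2 with the exact test, no filter or the adjusted p only, and 0 with library size only, upper quartile factors, TMM on genes of at least 10 CPM, the filter of 1 CPM or the 4-fold threshold. Leaving out each library in turn gave 0 to 1 downregulated postsynaptic genes and 0 to 1 downregulated other receptors and channels. With the replicate block, 32 receptor genes rose and 8 fell, and Gabrp and Gabrr3 reached an adjusted p of 0.0595. Grm4, which did not pass the test, ran from -0.22 without KO replicate 3 to 0.24 without KO replicate 4, and was -0.15 without control replicate 1. Library size only moved the median of all genes by 0.29 on the log2 scale and the share of receptor calls that were upregulated to 86.4%, against 90.6% of all calls. Of the 8 downregulated receptor genes, 6 stayed called with library size only, and 6 with TMM on genes of at least 10 CPM. Without control replicate 1 the log2 fold change of Gabrr1 was 8.11, and that of Scn9a was 9.75 without control replicate 4. Per length, the union of exons moved Chrm3 to 4.23, Chrng to 3.83 and Grm8 to 2.73 in control. The cause of these changes was not tested. Of 48 named genes, 38 kept their direction and their side of an adjusted p of 0.05, fold aside, in every alternative that tested them, and 46 of the 48 were tested with the filter of 1 CPM. Depth limits genes under 0.326 CPM, or 3 counts in the shallowest library.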
